A study of Mus musculus with 15 samples.

Results

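The homing receptors of lymphocytes examined here were 9 genes chosen by symbol, namely the chemokine receptors Cxcr4, Cxcr5, Ccr7, Ccr6 and Cxcr3, the sphingosine 1-phosphate receptor S1pr1, the integrin subunits Itga4 and Itgb1, and the hyaluronan receptor Cd44. All 9 were found in both deposited tables, among 17029 genes listed in either table and 15869 listed in both. The study asked how ibrutinib, an inhibitor of Bruton's tyrosine kinase (BTK), acts on malignant B-cells with and without an intact p53 pathway. Every library came from the tumor-burdened spleen of a C57Bl/6 mouse carrying the Eμ-TCL1 transgene, in which the immunoglobulin Eμ enhancer drives the TCL1 oncogene in B-cells and a disease like chronic lymphocytic leukemia (CLL) follows. Cells were freed mechanically, cultured for 24 h with vehicle (DMSO) or 5 μM ibrutinib and lysed for RNA-Seq, with no purification of B-cells given in the labels. The 4 groups were Eμ-TCL1 in DMSO (n = 3, replicates 2, 3 and 4), Eμ-TCL1;p53R172H/+ in DMSO (n = 5, replicates 1 to 5), Eμ-TCL1 in ibrutinib (n = 3, replicates 1, 3 and 4) and Eμ-TCL1;p53R172H/+ in ibrutinib (n = 4, replicates 1, 3, 4 and 5). The p53R172H/+ mice carried 1 mutant and 1 wild-type Trp53 allele, and the tables do not separate the alleles. Ages of the animals behind these cultures are not given in the labels.

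Homing receptors place lymphocytes in tissue. Chemokine receptors are G-protein-coupled receptors that read gradients of chemokines and draw cells into follicles, T-cell zones, marrow or inflamed sites. S1PR1 reads sphingosine 1-phosphate, which is high in blood and lymph, and lets cells leave lymphoid organs, whereas the α4β1 integrin and CD44 hold cells to endothelium and matrix. In CLL the malignant cells depend on such niches, and BTK inhibitors are known for moving leukemic cells from tissue into the blood.

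Levels are the authors' normalized CPM, read counts per gene scaled to the size of the library. The tables for DMSO and ibrutinib were scaled separately, so genotypes were tested within a table and levels are set side by side, untested, across tables. A log2 change is Eμ-TCL1;p53R172H/+ relative to Eμ-TCL1 on the log2(value + 1) scale, with its standard error (SE), from limma fitted over all genes of a table with Benjamini-Hochberg adjustment, and a gene was called at an adjusted p under 0.05. The labels do not state whether replicates were separate animals, and the p-values therefore measure the spread between these libraries.

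Before the receptors are described, 5 libraries stood apart by markers of other spleen cells. Summed levels of 12 B-cell markers were 345.5 and 354 in Eμ-TCL1;p53R172H/+ replicates 2 and 1 in DMSO and 91.9 in replicate 1 in ibrutinib, against 680.7 to 5020.4 in the other 6 libraries of that genotype. The same 3 libraries held the highest sums of 12 T-cell markers, from 2166.7 to 4092.7, and are called T-marker-rich here. In ibrutinib, replicates 3, 4 and 5 of that genotype, not given this name, also had T-cell-marker sums above every Eμ-TCL1 library. They were at 1335.8, 703.3 and 930, against 222.5 to 685.1. Eμ-TCL1 replicate 2 in DMSO and replicate 1 in ibrutinib had myeloid-marker sums of 29095 and 20666, with 11 of 12 listed markers found, and are called myeloid-marker-rich; the other 13 libraries were between 31.6 and 1168.2. Their erythroid-marker sums of 17908 and 15494, over the 9 found of 11 listed, were also high, and their B-cell-marker sums of 709.3 and 565.3 were low. None of the markers found in these lists was at 0 in every library. Sex also moved in part with genotype. The Y-linked gene Ddx3y was at 0 in every Eμ-TCL1 library and between 75.1 and 177.3 in 6 of the 9 Eμ-TCL1;p53R172H/+ libraries, so sex and genotype cannot be fully told apart. Replicate 3 of Eμ-TCL1;p53R172H/+ had Ddx3y at 0.1 in DMSO and 82.1 in ibrutinib, so the libraries sharing that number differed in this gene. In bulk samples, fewer cells of a type and less RNA per cell cannot be told apart.

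Cxcr3 and Itga4 were at opposite extremes in the T-marker-rich libraries, and their upstream DNA is shown for that reason. Each sequence is the 250 bases before the gene start in RefSeq (GRCm38.p6), written in the direction of the gene. Cxcr3 lies on the minus strand at chrX:101734148-101734397 and Itga4 on the plus strand at chr2:79255176-79255425. In the GENCODE annotation used below for gene positions, Cxcr3 reaches 101734269, so part of its window lies inside the gene as annotated there. Capitals mark matches, on either strand, to the KLF box CACCC, the ETS core GGAAG, the forkhead motif TGTTTAC and the T-box motif TCACACC.
Cxcr3: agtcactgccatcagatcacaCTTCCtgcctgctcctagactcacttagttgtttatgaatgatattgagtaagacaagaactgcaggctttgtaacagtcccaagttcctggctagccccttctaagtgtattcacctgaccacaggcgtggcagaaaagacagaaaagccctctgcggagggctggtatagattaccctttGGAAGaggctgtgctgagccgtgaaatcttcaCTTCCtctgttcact
Itga4: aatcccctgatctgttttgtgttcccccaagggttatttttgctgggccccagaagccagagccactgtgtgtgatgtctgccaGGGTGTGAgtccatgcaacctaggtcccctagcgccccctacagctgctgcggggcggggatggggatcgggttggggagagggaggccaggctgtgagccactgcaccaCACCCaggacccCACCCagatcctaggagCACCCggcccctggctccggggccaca
The Cxcr3 window held 3 ETS cores and no match to the other motifs. The Itga4 window held 4 KLF boxes and 1 T-box motif, with 1 KLF box inside the run that also holds the T-box match, and no match to the other motifs. Over 32851 promoter windows of the same length, 52.0% held the KLF box, 64.1% the ETS core, 3.17% the forkhead motif and 3.33% the T-box motif. Among the other members, the Cxcr4 window held 1 KLF box and the Itgb1 window held 2 KLF boxes and 2 ETS cores. The Cd44 window held 4 ETS cores, and the 2 windows of Ccr6 held 2 and 1 ETS cores, with no other match in these 3. S1pr1, Ccr7 and Cxcr5 had no entry. A match describes letters and is no evidence of binding.

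**Figure D1:**
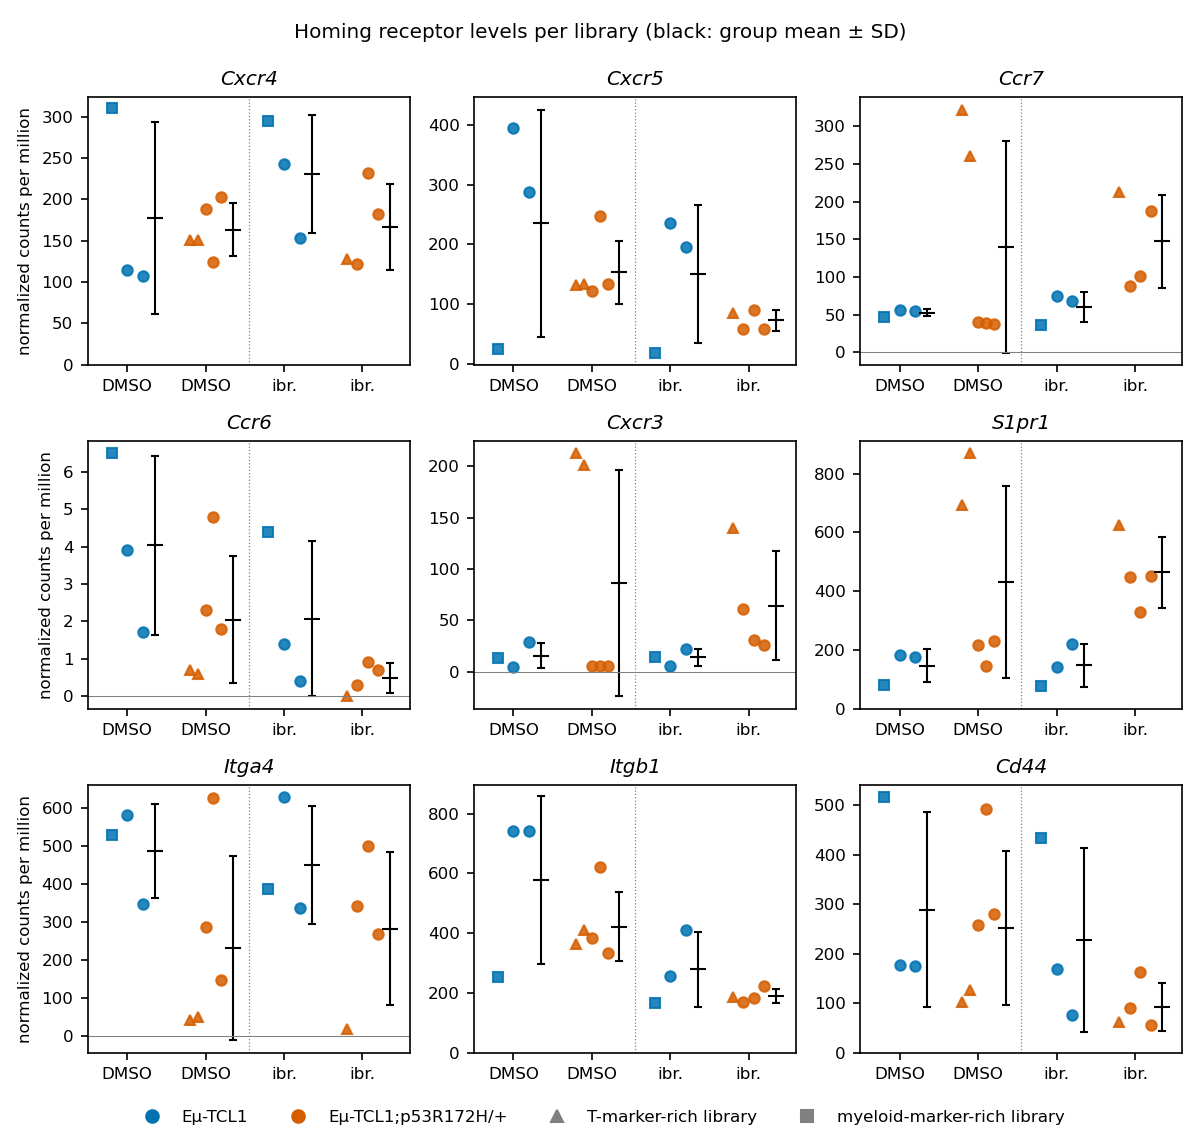
Normalized CPM (vertical axis, linear) of each receptor in every library, in 4 columns per panel from left to right: Eμ-TCL1 in DMSO, Eμ-TCL1;p53R172H/+ in DMSO, Eμ-TCL1 in ibrutinib and Eμ-TCL1;p53R172H/+ in ibrutinib (ibr.), with black bars for mean ± SD. S1pr1, Ccr7 and Cxcr3 do not overlap between genotypes in ibrutinib, and in DMSO their 2 highest points are the T-marker-rich libraries.

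In DMSO none of the 9 receptors was called between genotypes, and for each of them the ranges of the genotypes overlapped. Of all 16470 genes, 0.0121% were called, and 8.17% had an unadjusted p under 0.05, against 0 of 9 receptors. Groups did not overlap in 6.45% of genes and in 0 of 9 receptors. The median log2 change of the 9 was 0.04, the same to 2 decimals as that of all genes, with 5 receptors higher and 4 lower in Eμ-TCL1;p53R172H/+.

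In ibrutinib S1pr1, Ccr7 and Cxcr3 were higher in each of the 4 Eμ-TCL1;p53R172H/+ libraries than in any Eμ-TCL1 library, by 3.16, 2.47 and 4.58 times in the means. These 3 had an unadjusted p under 0.05 by limma and the other 6 did not, beside 12.0% of all 16428 genes. Groups did not overlap in 12.7% of genes and in 3 of 9 receptors. None of the 9 was called by limma, nor was any other gene (0%), while 1973 genes had an unadjusted p under 0.05. The median log2 change of the 9 was -0.46, and that of all genes was -0.05.

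CXCR4 binds CXCL12 and retains B-cells and CLL cells in marrow and lymphoid niches. Its gene (ENSMUSG00000045382, GRCm38 chromosome 1, 128588199 to 128592293, minus strand) was at 311, 114.1 and 107 in Eμ-TCL1 and at 151, 150.4, 188.5, 124.2 and 202.7 in Eμ-TCL1;p53R172H/+ replicates 1 to 5 in DMSO. In ibrutinib Cxcr4 was 295.5, 242.4 and 153.9 in Eμ-TCL1, and 127.7, 122.3, 232.5 and 182.4 in Eμ-TCL1;p53R172H/+ replicates 1, 3, 4 and 5. The highest value in each table came from the myeloid-marker-rich library, and the genotypes overlapped in both. The log2 change was 0.04 (SE 0.37, limma adjusted p = 0.977) in DMSO and -0.47 (SE 0.32, adjusted p = 0.564) in ibrutinib. Without the T- and myeloid-marker-rich libraries it was 0.60 in DMSO (limma adjusted p = 0.327), where the 3 remaining Eμ-TCL1;p53R172H/+ libraries lay above both Eμ-TCL1 libraries.

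CXCR5, the receptor for CXCL13, guides B-cells into follicles and is also carried by follicular helper T cells. Cxcr5 (ENSMUSG00000047880, chromosome 9, 44511787 to 44561877, minus strand) had DMSO levels of 25.4, 394.1 and 287.7 in Eμ-TCL1 and of 131.5, 133.1, 122, 246.8 and 134 in Eμ-TCL1;p53R172H/+. Under ibrutinib Cxcr5 levels were 19.3, 236.7 and 195.9 in Eμ-TCL1 and 85.5, 59.1, 89.8 and 57.9 in Eμ-TCL1;p53R172H/+. The lowest library of each table was the myeloid-marker-rich one, and it alone kept the genotypes overlapping in ibrutinib. In the 2 T-marker-rich DMSO libraries Cxcr5 was as high as in replicates 3 and 5, although their B-cell-marker sums were 354 and 345.5 against 4398.6 and 4303.7. The log2 change of Cxcr5 was 0.04 (SE 0.80, limma adjusted p = 0.988) in DMSO and -0.44 (SE 0.81, adjusted p = 0.829) in ibrutinib. Without the T- and myeloid-marker-rich libraries it was -1.08 (SE 0.38, limma adjusted p = 0.268) and -1.66 (SE 0.25, adjusted p = 0.0898), with no overlap in either table. In those libraries summed B-cell markers were also lower in Eμ-TCL1;p53R172H/+, at 4398.6, 5020.4 and 4303.7 against 7047.1 and 5252.2 in DMSO. In ibrutinib these sums were 680.7, 1821.8 and 1570.8 against 4189.6 and 3145.1. The part of B-cells in the Cxcr5 difference was not tested. Exons of Cxcr5 overlap those of Bcl9l on the opposite strand, and the strandedness of the counting is not given in the sources used here.

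CCR7 binds CCL19 and CCL21 and brings naive and central memory T cells, and activated B-cells, to T-cell zones. Ccr7 (ENSMUSG00000037944, chromosome 11, 99144196 to 99155077, minus strand) measured 47.4, 56.1 and 55.3 in Eμ-TCL1 and 322.4, 261.2, 40.2, 39 and 37.2 in Eμ-TCL1;p53R172H/+ in DMSO. The 2 T-marker-rich libraries were the only ones above Eμ-TCL1, and replicates 3, 4 and 5 were all below it. With ibrutinib Ccr7 measured 37, 74.2 and 68.2 in Eμ-TCL1 and 212.4, 88.4, 101.8 and 187.8 in Eμ-TCL1;p53R172H/+, where the groups did not overlap. The log2 change was 0.71 (SE 0.81, limma adjusted p = 0.763) in DMSO and 1.25 (SE 0.39, adjusted p = 0.321) in ibrutinib. Without the T-marker-rich libraries it was -0.44 (SE 0.18, limma adjusted p = 0.447) in DMSO, the opposite direction, and 1.04 (SE 0.39, adjusted p = 0.484) in ibrutinib. With those libraries left out the genotypes did not overlap for 1 of 9 receptors in DMSO, which was Ccr7, beside 19.4% of all genes, and for the same 3 of 9 as before in ibrutinib, beside 16.1%.

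CCR6, the receptor for CCL20, marks memory B-cells and a subset of helper T cells. Ccr6 (ENSMUSG00000040899, chromosome 17, 8236043 to 8257141, plus strand) was the lowest of the 9, from 0.6 to 6.5 in DMSO and from 0 to 4.4 in ibrutinib. The highest Ccr6 in each table was in the myeloid-marker-rich library, and the library at 0 was the T-marker-rich replicate 1 of Eμ-TCL1;p53R172H/+ in ibrutinib. Its log2 changes were -0.77 (SE 0.51, limma adjusted p = 0.645) and -0.88 (SE 0.47, adjusted p = 0.493), with overlap in both tables. Neither change was called, and at this level, with values rounded to 0.1 and depth unknown, the counting error could not be computed.

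CXCR3 binds CXCL9, CXCL10 and CXCL11 and marks effector T cells and NK cells. Cxcr3 (ENSMUSG00000050232, chromosome X, 101731535 to 101734269, minus strand) was 13.6, 4.7 and 29.2 in Eμ-TCL1 and 212.6, 201.6, 5.6, 5.7 and 6 in Eμ-TCL1;p53R172H/+ in DMSO. In the 2 T-marker-rich libraries Cxcr3 therefore stood at the 95.1 and 94.4 percentile of the 15869 shared genes, and between 37.6 and 39.6 in replicates 3 to 5. Ibrutinib libraries held Cxcr3 at 14.8, 5.2 and 22.2 in Eμ-TCL1 and at 140.0, 61, 30.7 and 26.2 in Eμ-TCL1;p53R172H/+, with no overlap. The log2 change was 0.97 (SE 1.44, limma adjusted p = 0.822) in DMSO and 1.99 (SE 0.67, adjusted p = 0.341) in ibrutinib. Without the T-marker-rich libraries it was -1.01 (SE 0.60, adjusted p = 0.556) in DMSO by limma and 1.52 (SE 0.56, adjusted p = 0.484) in ibrutinib.

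S1PR1 is the receptor that lets lymphocytes leave lymphoid organs, and it kept its direction in every setting tried. S1pr1 (ENSMUSG00000045092, chromosome 3, 115710433 to 115715072, minus strand) was 81.7, 181.4 and 175 in Eμ-TCL1 and 694.2, 870.7, 217.2, 145.4 and 231 in Eμ-TCL1;p53R172H/+ in DMSO. The T-marker-rich libraries were highest, replicates 3 and 5 lay just above Eμ-TCL1, and replicate 4 lay within it. In ibrutinib S1pr1 was 77.9, 141.5 and 221.4 in Eμ-TCL1 (147 ± 71.9, SD, n = 3) and 624.6, 449.6, 328.7 and 452.3 in Eμ-TCL1;p53R172H/+ (464 ± 122, SD, n = 4). The lowest Eμ-TCL1;p53R172H/+ library was above the highest Eμ-TCL1 library, with or without the T-marker-rich one. The log2 change was 1.29 (SE 0.63, limma adjusted p = 0.636) in DMSO and 1.74 (SE 0.38, unadjusted p = 0.00229, adjusted p = 0.222) in ibrutinib. Without the T-marker-rich libraries it was 0.49 (SE 0.38, adjusted p = 0.598) by limma in DMSO and 1.58 (SE 0.40, adjusted p = 0.361) in ibrutinib. Without the T- and myeloid-marker-rich libraries it was 0.12 (SE 0.24, limma adjusted p = 0.835) and 1.19 (SE 0.28, adjusted p = 0.150).

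The linear means of each receptor were also compared between genotypes by an exact permutation test (two-sided). In ibrutinib S1pr1, Ccr7 and Cxcr3 each had p = 0.0571 in the exact test, which is the smallest p that 35 splits of 7 libraries allow, so this test could not pass 0.05. In DMSO the exact test over 56 splits can reach 0.0357, and the 9 values ran from 0.107 for S1pr1 to 0.857 for Cd44.

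T-cell markers moved with these 3 receptors in ibrutinib. Summed T-cell markers were between 222.5 and 685.1 in Eμ-TCL1 and between 703.3 and 2166.7 in Eμ-TCL1;p53R172H/+, and 8 of the 12 markers were higher without overlap. Summed NK-cell markers were between 13 and 57.5 against 67.6 and 451, with 2 of 7 higher without overlap. Among the T-marker-rich libraries Cd8a was 266.2 and 298.1 in DMSO and 134.9 in ibrutinib, while Cd4 was 2, 4.4 and 1.5. Replicates 3, 4 and 5 of Eμ-TCL1;p53R172H/+, kept when the T-marker-rich library was left out, had T-cell-marker sums of 1335.8, 703.3 and 930. The ibrutinib fits without that library therefore still compare genotypes with unlike T-cell-marker levels. The part of T and NK cells in the levels of S1pr1, Ccr7 and Cxcr3 was not tested.

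**Figure D2:**
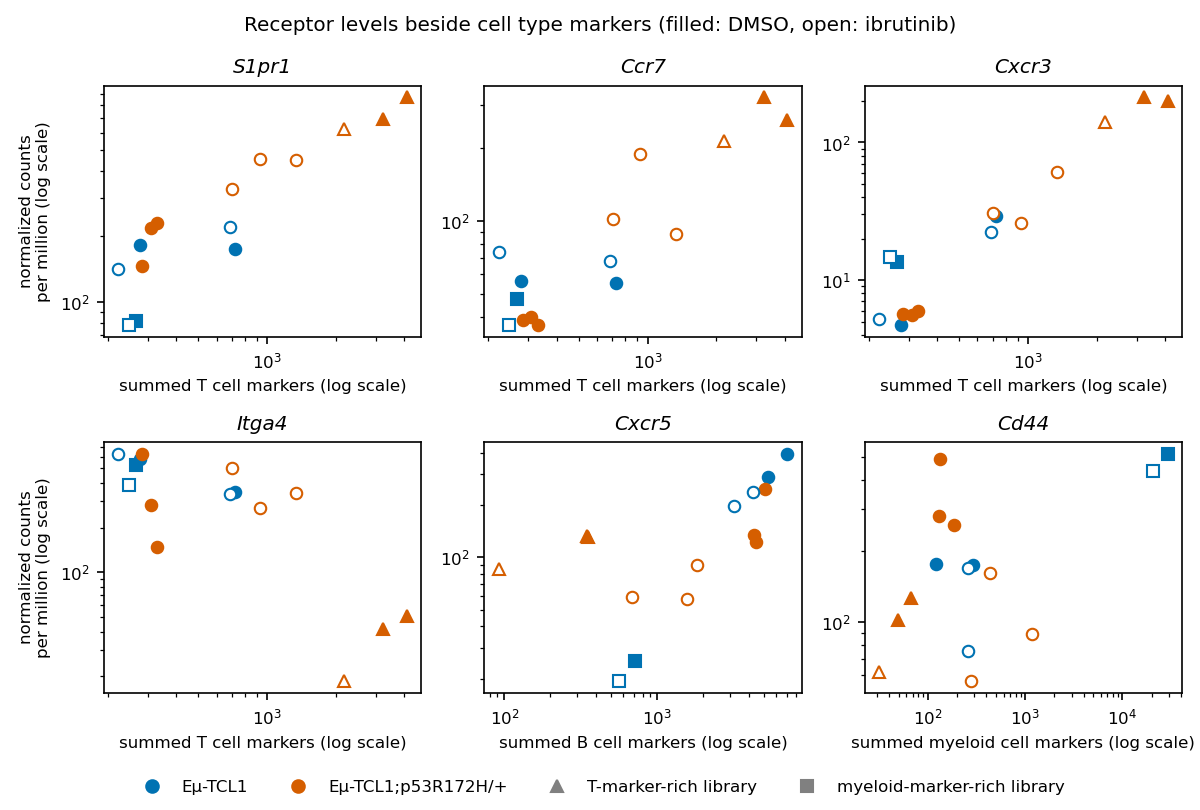
Level of 6 receptors (vertical axis, normalized CPM, log scale) against the summed markers of 1 cell type (horizontal axis, the same unit, log scale) in all 15 libraries, filled for DMSO and open for ibrutinib. S1pr1, Ccr7 and Cxcr3 are highest and Itga4 lowest in the 3 T-marker-rich libraries, and Cd44 is high in the 2 myeloid-marker-rich ones.

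ITGA4 and ITGB1 are the α4 and β1 chains of the integrin VLA-4, which binds VCAM-1 and fibronectin. Itga4 (ENSMUSG00000027009, chromosome 2, 79255426 to 79333123, plus strand) was 530.4, 582.6 and 348.1 in Eμ-TCL1 and 41.7, 51.1, 285.7, 626.8 and 147.8 in Eμ-TCL1;p53R172H/+ in DMSO. In ibrutinib it was 387.9, 628.3 and 336.6 in Eμ-TCL1 and 18.5, 341.7, 500.2 and 269.5 in Eμ-TCL1;p53R172H/+. The 3 T-marker-rich libraries were the lowest of their tables and the highest Itga4 values of the genotype came from replicate 4, so the groups overlapped. The log2 change of Itga4 was -1.74 (SE 0.85, limma adjusted p = 0.636) in DMSO and -1.33 (SE 1.07, adjusted p = 0.609) in ibrutinib. Without the T-marker-rich libraries it was -0.67 (SE 0.55, adjusted p = 0.605) by limma and -0.28 (SE 0.35, adjusted p = 0.795). Exons of Itga4 overlap Cerkl on the opposite strand, with the limit given for Cxcr5.

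Itgb1 (ENSMUSG00000025809, chromosome 8, 128685654 to 128733200, plus strand) was 251.3, 739.9 and 740.5 in Eμ-TCL1 and 362.7, 409.4, 382.5, 620.0 and 332.8 in Eμ-TCL1;p53R172H/+ in DMSO. Ibrutinib values of Itgb1 were 165.8, 256.8 and 411.7 in Eμ-TCL1, and 186.6, 169.1, 181.6 and 222.6 in Eμ-TCL1;p53R172H/+. Unlike its partner chain, Itgb1 in the T-marker-rich libraries lay within the range of the other libraries of the genotype, and the lowest Eμ-TCL1 library was the myeloid-marker-rich one in each table. The log2 change was -0.33 (SE 0.41, limma adjusted p = 0.786) in DMSO and -0.46 (SE 0.31, adjusted p = 0.561) in ibrutinib. Without the T- and myeloid-marker-rich libraries Itgb1 was -0.79 (SE 0.32, limma adjusted p = 0.320) and -0.77 (SE 0.27, adjusted p = 0.241), without overlap in either table. Summed B-cell markers differed between the same libraries, as given for Cxcr5, and the part of B-cells in the Itgb1 difference was not tested.

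CD44 binds hyaluronan and osteopontin and rises on activated and memory lymphocytes and on myeloid cells. Cd44 (ENSMUSG00000005087, chromosome 2, 102811141 to 102901665, minus strand) was 516.6, 176.1 and 174.3 in Eμ-TCL1 and 102.7, 126.8, 258.5, 492 and 281 in Eμ-TCL1;p53R172H/+ in DMSO. In ibrutinib Cd44 stood at 434.4, 169.3 and 75.9 in Eμ-TCL1 and at 61.7, 89.1, 162.1 and 56.2 in Eμ-TCL1;p53R172H/+. The myeloid-marker-rich libraries were the highest of each table, and the T-marker-rich libraries were the lowest in DMSO. Its log2 changes were -0.22 (SE 0.58, limma adjusted p = 0.904) and -1.07 (SE 0.61, adjusted p = 0.521). Without the T- and myeloid-marker-rich libraries the DMSO change was 0.91 (SE 0.33, limma adjusted p = 0.275), with the 3 Eμ-TCL1;p53R172H/+ libraries above both Eμ-TCL1 libraries, and the ibrutinib change was -0.28 (SE 0.55, adjusted p = 0.834). With those libraries left out the groups did not overlap for 5 of 9 receptors in DMSO, beside 32.7% of all genes, and for 5 of 9 in ibrutinib, beside 34.0%.

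**Figure D3:**
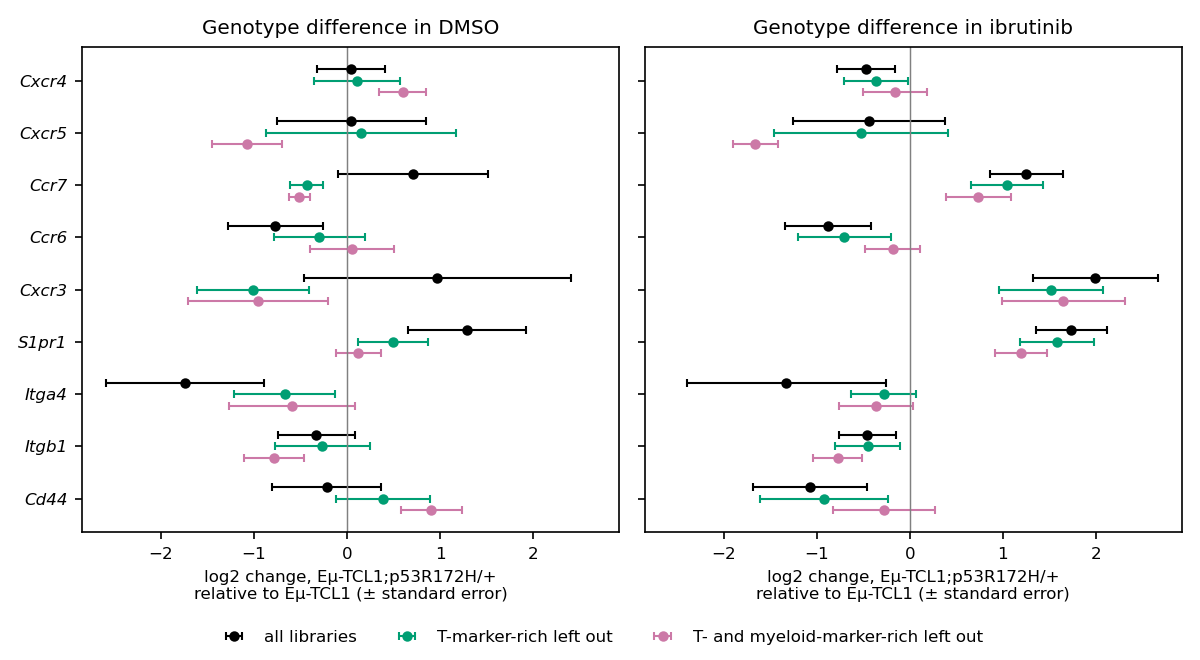
Log2 change of each receptor (horizontal axis, Eμ-TCL1;p53R172H/+ relative to Eμ-TCL1, points with standard errors from limma) in DMSO and ibrutinib, with all libraries and with T-marker-rich or T- and myeloid-marker-rich libraries left out. S1pr1 stays above 0 in all 6 fits, and Ccr7 and Cxcr3 lie below 0 in DMSO and above 0 in ibrutinib once the T-marker-rich libraries are left out. The Eμ-TCL1;p53R172H/+ libraries then kept have T-cell-marker sums of 283.8 to 330.4 in DMSO and 703.3 to 1335.8 in ibrutinib.

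Whether the genotype difference itself differed between treatments was tested as an interaction over all 15 libraries. None of the 9 receptors was called and none had an unadjusted p under 0.05, beside 0% and 0.523% of 15869 genes (83 genes at an unadjusted p under 0.05). The largest interaction terms were 1.02 for Cxcr3 (limma adjusted p = 1) and -0.85 for Cd44 (adjusted p = 1). Without the T-marker-rich libraries the term was 1.48 for Ccr7 (SE 0.44, unadjusted p = 0.00653, limma adjusted p = 0.510) and 2.53 for Cxcr3 (SE 0.88, unadjusted p = 0.0156, adjusted p = 0.561), neither of them called. The Eμ-TCL1;p53R172H/+ libraries kept there had T-cell-marker sums of 283.8 to 330.4 in DMSO and 703.3 to 1335.8 in ibrutinib. Those of Eμ-TCL1 were 266.4 to 726.2 and 222.5 to 685.1. The part of T cells in the terms of that fit was not tested. In that fit 2 of 9 receptors and 7.22% of genes had an unadjusted p under 0.05. When the myeloid-marker-rich library of DMSO was also left out, 3 of 9 did, beside 6.29% of genes, with S1pr1 at 1.46 (SE 0.52, unadjusted p = 0.0202, limma adjusted p = 0.715) the added one. When those of both tables were left out, it was the same number beside 8.94% of genes, with S1pr1 at 1.07 (SE 0.39, unadjusted p = 0.0233, limma adjusted p = 0.471).

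The interaction fit did not use the replicate numbers, although same-numbered libraries of a genotype went together across treatments in 5 of 6 pairs (correlations of their deviations from the group mean from 0.75 to 0.84). The exception was number 3 of Eμ-TCL1;p53R172H/+, at -0.11. Some libraries with unlike numbers also went together, so such a correlation does not by itself mark a shared animal. Eμ-TCL1 replicate 2 in DMSO and replicate 1 in ibrutinib, the myeloid-marker-rich ones, were at 0.90. The T-marker-rich Eμ-TCL1;p53R172H/+ replicate 2 in DMSO and replicate 1 in ibrutinib were at 0.71. With a replicate block within genotype, chosen after seeing the data, 0 genes were called by limma and 5.05% (802 genes) had an unadjusted p under 0.05, against 0.523% without it. None of the 9 receptors was among these, with S1pr1 at 0.77 (SE 0.43, unadjusted p = 0.120, limma adjusted p = 0.871) and Cxcr3 at 1.84 (SE 0.97, unadjusted p = 0.103, adjusted p = 0.871). The block kept number 3 of Eμ-TCL1;p53R172H/+ as a pair. Libraries without a same-numbered partner in the other treatment do not inform its interaction term.

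Set side by side across the separately scaled tables, 6 pairs of libraries shared a genotype and a replicate number. Cxcr5, Ccr6, Itgb1 and Cd44 had the lower value in ibrutinib in 6 of 6 pairs. The share of all genes moving in the same direction in every pair, by value or by rank, was not computed. Such counts therefore do not set these receptors apart from other genes. Ranked within its library, which needs no common scale, Cxcr5 and Ccr6 were lower in ibrutinib in 6 of 6 pairs, and Itgb1 and Cd44 in 5 of 6. S1pr1 ranked higher in ibrutinib in 6 of 6 pairs although its value was higher in 4 of 6, and Ccr7 was higher by value and by rank in 5 of 6. The pair numbered 3 of Eμ-TCL1;p53R172H/+, with unlike Ddx3y, is among them, and no test was made across tables. Summed B-cell markers were also lower in ibrutinib in each of these pairs. Summed T-cell markers rose in numbers 3, 4 and 5 of Eμ-TCL1;p53R172H/+, from 308.3, 283.8 and 330.4 in DMSO to 1335.8, 703.3 and 930. They were lower in ibrutinib in the other pairs. The part of B and T cells in the receptor levels of these pairs was not tested.

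Levels were compared between receptors per kilobase of annotated exon. The length covered all annotated exons of a gene, from a later GENCODE release than the one the authors counted on. It was 13978 bases for Itga4 and 4081 for Itgb1, so the order between receptors depends on this choice of length. In DMSO Itgb1 had the highest median in both genotypes, at 181 normalized CPM per kb in Eμ-TCL1 and at 93.7 in Eμ-TCL1;p53R172H/+, and Ccr6 the lowest, at 1.68 and 0.776. In ibrutinib the highest median was that of Cxcr4 in Eμ-TCL1, at 134, and that of S1pr1 in Eμ-TCL1;p53R172H/+, at 148. Ccr6 was again lowest, at 0.603 and 0.216. Of the 8 neighbouring steps in each group's order, 7 had overlapping ranges, and the step that separated lay between Cd44 and Cxcr3 in Eμ-TCL1 in DMSO and directly above Ccr6 in the other groups.

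**Figure D4:**
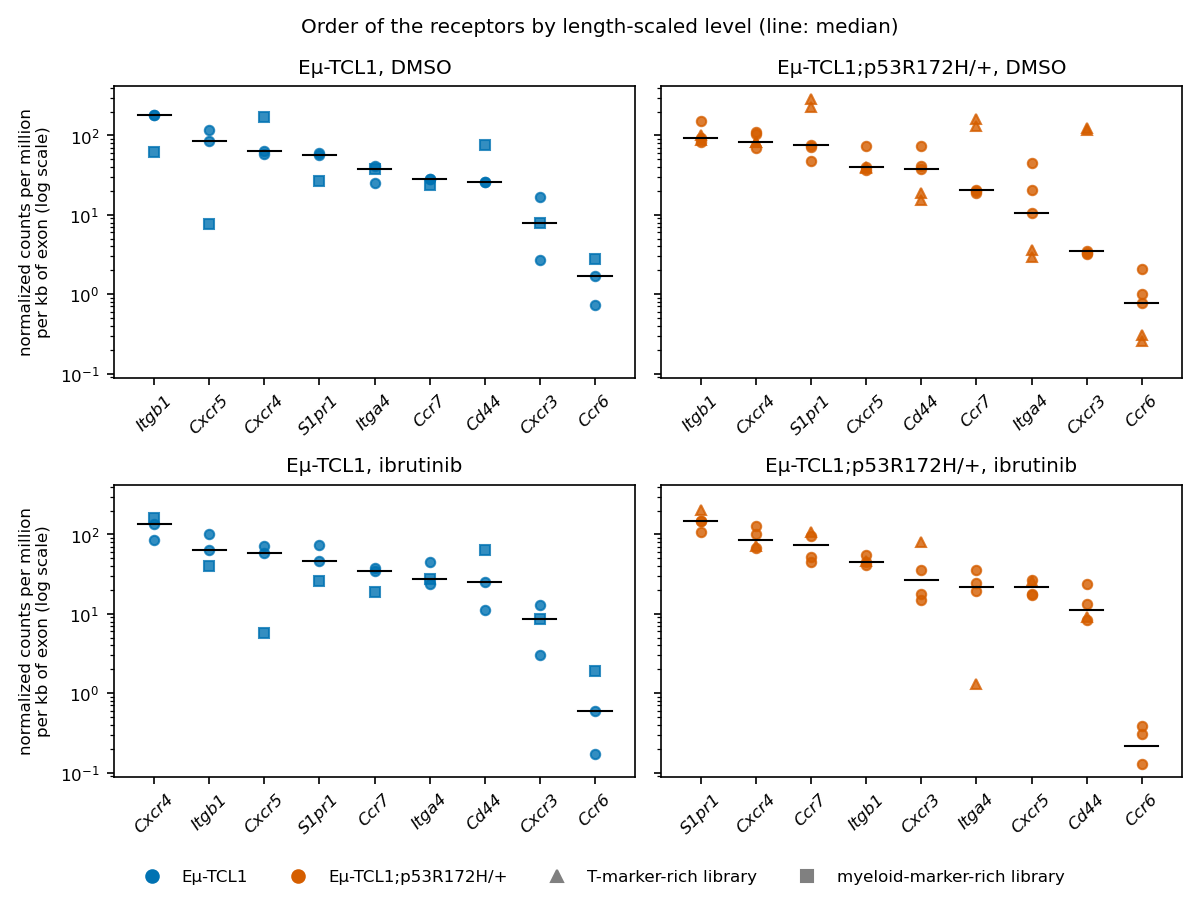
Normalized CPM per kb of exon (vertical axis, log scale) of the 9 receptors in each group, ordered by their median (black line), with 1 point per library and the single Ccr6 value of 0 left off the log axis. In ibrutinib S1pr1 leads the order in Eμ-TCL1;p53R172H/+ and Cxcr4 leads it in Eμ-TCL1.

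The pathway around these receptors was read from 7 lists, chosen with earlier results of these data known, and no gene of them was called in any fit. Their median log2 changes in DMSO ran from -0.34 for other chemokine receptors (12 found of 16) to 0.28 for lipid and oxysterol receptors (10 of 10). In ibrutinib the medians of the same lists were -0.60 and 0.38. For other integrins and selectin-system receptors (15 of 15) they were 0.03 and -0.17, for ligands of the 9 receptors (7 and 9 found of 14) -0.01 and 0.09, and for integrin activation and migration machinery (22 of 22) -0.05 and -0.30. At an unadjusted p under 0.05, 5 of the 97 genes found were higher and 3 lower in DMSO, beside 8.17% of all genes, and 5 of 99 were higher and 8 lower in ibrutinib, beside 12.0%. By list these were, in DMSO, 2 higher and 2 lower of the 22 regulators of receptor level and G-protein signal, 1 lower chemokine receptor, and 1 higher each of the integrin and selectin-system receptors, the ligands and the genes of sphingosine 1-phosphate metabolism. In ibrutinib they were 1 higher and 3 lower regulators, 3 lower of the 22 genes of integrin activation and migration, 1 lower chemokine receptor, 2 higher ligands, 1 higher lipid receptor, and 1 higher and 1 lower of the integrin and selectin-system receptors.

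Klf2, a transcription factor known to keep S1pr1 on in resting lymphocytes, was the regulator with the lowest p in ibrutinib. Its levels were 62.3, 36.8 and 48.7 in Eμ-TCL1 and 147.7, 108.5, 78.5 and 108.6 in Eμ-TCL1;p53R172H/+, without overlap, a log2 change of 1.15 (SE 0.26, limma adjusted p = 0.226). In DMSO the log2 change of Klf2 was 0.030 (SE 0.59, limma adjusted p = 0.989). Foxo1, which drives Klf2, S1pr1 and Ccr7 in T cells, was 45.4, 87.5 and 80.8 in Eμ-TCL1 and 107.7, 132.4, 94.4, 110.6 and 146.7 in Eμ-TCL1;p53R172H/+ in DMSO, also without overlap (log2 change 0.76, SE 0.27, adjusted p = 0.546). In ibrutinib the log2 change of Foxo1 was -0.053 (SE 0.57, limma adjusted p = 0.971). The part of Klf2 and Foxo1 in the receptor levels was not tested. Rgs18, a regulator of G-protein signaling of myeloid cells and platelets, went the other way in DMSO, with 42.7, 9.7 and 11.9 against 0.3 to 6.7 (log2 change -3.07, SE 0.70, limma adjusted p = 0.319), and had a log2 change of -1.37 in ibrutinib (adjusted p = 0.537). In ibrutinib Grk5, a kinase that desensitizes G-protein-coupled receptors, was between 18.8 and 57.6 in Eμ-TCL1 and between 4.2 and 19.3 in Eμ-TCL1;p53R172H/+ (log2 change -1.75, SE 0.53, adjusted p = 0.316), and in DMSO its log2 change was -1.38 (adjusted p = 0.623).

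Other adhesion and migration genes gave the following values. Itga6, the α6 chain of the laminin-binding integrin α6β1, was 73.4, 29.4 and 83.2 in Eμ-TCL1 and 314.3, 189.5, 126.1 and 128.1 in Eμ-TCL1;p53R172H/+ in ibrutinib (log2 change 1.62, SE 0.46, limma adjusted p = 0.296), with a log2 change of 0.53 (SE 0.95, adjusted p = 0.853) in DMSO. Itgb7, which pairs with Itga4 to form the gut-homing integrin α4β7, had a log2 change of -0.92 (SE 0.48, adjusted p = 0.645) in DMSO and -1.29 (SE 0.47, adjusted p = 0.352) in ibrutinib by limma. Icam1, a ligand of β2 integrins, was 24.2 to 75.1 in Eμ-TCL1 and 81.3 to 129 in Eμ-TCL1;p53R172H/+ in DMSO (log2 change 0.87, SE 0.38, limma adjusted p = 0.608), with 0.54 (adjusted p = 0.531) in ibrutinib. Rac2, a GTPase of leukocyte migration, was 394.6, 450.4 and 438.6 in Eμ-TCL1 and 260.7, 242.3, 239.9 and 206.2 in Eμ-TCL1;p53R172H/+ in ibrutinib. The Rac2 groups did not overlap, with a log2 change of -0.85 (SE 0.17, limma adjusted p = 0.203), whereas in DMSO the log2 change of Rac2 was 0.088 (SE 0.44, adjusted p = 0.954). Dock8, an activator of CDC42 needed by migrating lymphocytes, had log2 changes of -0.46 (SE 0.23, adjusted p = 0.636) in DMSO and -0.76 (SE 0.26, adjusted p = 0.341) in ibrutinib by limma.

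Among other receptors and ligands, Ccr1, an inflammatory chemokine receptor of myeloid cells, was between 57.8 and 84.9 in Eμ-TCL1 and between 4.8 and 62 in Eμ-TCL1;p53R172H/+ in DMSO (log2 change -2.60, SE 0.73, limma adjusted p = 0.442). Only replicate 4 of Eμ-TCL1;p53R172H/+, at 62, reached the Eμ-TCL1 range. In ibrutinib Ccr1 was 46.1, 4.4 and 5.7 against 0.3 to 3.9 (log2 change -2.31, SE 0.82, limma adjusted p = 0.348). Gpr183, the oxysterol receptor that positions B-cells at follicle edges, was 26 to 105.8 in Eμ-TCL1 and 60.7 to 257.4 in Eμ-TCL1;p53R172H/+ in ibrutinib, with overlap (log2 change 1.20, SE 0.62, limma adjusted p = 0.481), and 0.61 on the log2 scale in DMSO (adjusted p = 0.826). Hmgb1, whose protein forms a complex with CXCL12 at CXCR4, was 20, 20.3 and 19 against 36.6, 37.6, 32.5 and 29.2 in ibrutinib, a log2 change of 0.75 (SE 0.15, limma adjusted p = 0.212), with 0.56 (SE 0.25, adjusted p = 0.615) in DMSO. Of the genes that make, degrade or export sphingosine 1-phosphate, 9 of 10 were found and their medians were -0.19 in DMSO and -0.40 in ibrutinib, with Sphk2, a sphingosine kinase, at 26.9 to 37.3 in Eμ-TCL1 and 36.1 to 53.9 in Eμ-TCL1;p53R172H/+ in DMSO. Its log2 changes were 0.56 (SE 0.21, limma adjusted p = 0.568) in DMSO and 0.24 (adjusted p = 0.632) in ibrutinib. The remaining genes with the lowest p of their lists were Cxcr2, Ltb4r1, Cnr2, Has3, Spp1, Spns2 and Fermt3 in DMSO and Ccr9, Ptger4, Has3, Spns2 and Ppap2a in ibrutinib, with adjusted p between 0.238 and 0.707 by limma. Has3, counted above among the higher ligands in both treatments, encodes a hyaluronan synthase and not a ligand itself. Its levels were low for values rounded to 0.1, from 0.1 to 0.6 in DMSO and from 0.4 to 1.6 in ibrutinib.

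The genes whose levels went most closely with each receptor were read over the 15 libraries, each table centred on its own mean, among 10119 genes. These correlations are descriptive, since the libraries share the marker differences given above. For Cxcr3 they were 1700025G04Rik (r = 0.995), Ctsw (0.99), which encodes a protease of cytotoxic lymphocytes, and Arl4c (0.99). For S1pr1 they were Wibg (r = 0.98), Gimap9 (0.97), a GTPase of lymphocytes, and Srpk1 (0.97). Over the 10 libraries left without the T- and myeloid-marker-rich ones these values were 0.98, 0.97 and 0.97 for Cxcr3 and 0.93, 0.93 and 0.93 for S1pr1. Summed T-cell markers still ran from 222.5 to 1335.8 over these 10. Ccr7 was led by Rnf145 (r = 0.95), for which r was 0.54 over those 10 libraries, and Itga4 by Ell2 (r = 0.96), an elongation factor of antibody-secreting cells, for which it was 0.63. Cxcr5 went with Grap (r = 0.97), Letmd1 (0.96) and Ikzf3 (0.96), the last a transcription factor of B-cells. The gene closest to Cd44 was Runx1 (r = 0.94), to Itgb1 Bpnt1 (0.94), to Ccr6 Klf10 (0.96) and to Cxcr4 Cd151 (0.88).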

How the data were processed

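RNA-Seq values of 15 libraries were taken from 2 deposited tables, 1 per treatment. According to the submitters' processing notes and the study's methods, the authors aligned reads with TopHat2 2.0.12 to GRCm38 (mm10), used SAMtools 0.1.19, counted reads per gene with HTSeq on GENCODE annotation, left out genes of low CPM and normalized with edgeR. Signal values as deposited are the authors' normalized CPM, rounded to 0.1, with column sums from 855661 to 1243999 in DMSO and from 756625 to 1359650 in ibrutinib. These sums follow from the scaling. Sequencing depth is unknown, so counting error could not be computed.

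Genotypes were compared with limma 3.58.1 in R 4.3.3 (lmFit, eBayes with trend) on log2(value + 1) over all 16470 or 16428 genes, with the interaction over 15869 shared genes. A count model was not run on normalized values. Exact tests used scipy 1.17.1 in Python 3.11.15, with the two-sided p as double the smaller tail, and figures matplotlib 3.10.9. The fits were tested on simulated data. Gene positions and exon lengths came from GENCODE release 21 for mouse (GRCm38), and sequences from RefSeq. All 9 members are named, with the 2 genes of lowest p per pathway list and fit, any called gene, and the 3 genes most alike per member. The members and lists were chosen with earlier results of these data known.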

Additional observations from a re-analysis of the deposited data

Results flagged for a closer look

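In groups of 4 to 10 libraries, a library was singled out where its gap to the nearest other, divided by the range of the group, passed Dixon's 95% limit. Of 18 groups tested, 2 held such a library, and chance flags about 1 in 20 groups. Both were replicate 4 of Eμ-TCL1;p53R172H/+ in DMSO. Its Cxcr5 level of 246.8 stood above the other 4 libraries, with a gap of 0.904 of the range (limit 0.71). Its Itgb1 level of 620.0 did so too, with a gap of 0.733 of the range.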

How the results depend on the processing

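No receptor was called under any alternative. S1pr1 kept its direction in all 3 comparisons (log2 changes from 0.12 to 1.60 in DMSO and from 1.19 to 2.10 in ibrutinib, adjusted p from 0.101 to 0.585 in the latter). Depth is unknown, a mean of at least 5 leaves out Ccr6, and fits without the T- or myeloid-marker-rich libraries rest on 2 or 3 libraries a group. The ibrutinib fit without both kinds and the fit blocked by replicate within genotype were chosen after seeing the data. So was counting absolute differences in the exact test, which gave p = 0.0286 in place of 0.0571 for S1pr1 in ibrutinib, and left Ccr7 at 0.0857 and Cxcr3 at 0.143. Same-numbered libraries did not go together between genotypes, where their deviations correlated from -0.20 to 0.29. Between treatments 5 of 6 pairs did (0.75 to 0.84) and 1 did not (-0.11, Eμ-TCL1;p53R172H/+ number 3), so the interaction is also given with a replicate block within genotype, which called 0 genes and moved those at an unadjusted p under 0.05 from 83 to 802. Unlike numbers could go together as closely, with 0.90 for Eμ-TCL1 replicate 2 in DMSO and replicate 1 in ibrutinib. The cause of the following differences was not tested.

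Of all genes in DMSO, where 2 were called, 6 were called with a pseudocount of 5, 803 with sample quality weights, 0 with the replicate block, 1 without the T-marker-rich libraries, 12 without the T- and myeloid-marker-rich ones, and 0 to 61 with each library left out (61 when the library was the myeloid-marker-rich Eμ-TCL1 replicate 2, 0 for Eμ-TCL1 replicate 3, 3 for its replicate 4, and 5 for replicate 4 of the mutant genotype). In ibrutinib, where 0 were called, 28 were with weights and 0 to 24 with each library left out (24 when it was Eμ-TCL1 replicate 1, 5 for replicate 5 of the mutant genotype). In DMSO the direction reversed with quantile normalization for Cxcr4 (-0.060) and Cxcr5 (-0.032), with weights for Cxcr5 (-1.05), Ccr7 (-0.12), Cxcr3 (-0.92) and Cd44 (0.55), and with the replicate block for Cxcr4 (-0.037) and Cd44 (0.0083). Without the T-marker-rich libraries it reversed for Ccr7 (-0.44), Cxcr3 (-1.01) and Cd44 (0.39), and without both kinds for Cxcr5 (-1.08), Ccr7 (-0.51), Ccr6 (0.052), Cxcr3 (-0.96) and Cd44 (0.91). With each library left out, Cxcr4 ran from -0.23 to 0.54, Cxcr5 from -1.18 to 0.77 and Cd44 from -0.52 to 0.30 in DMSO, and Cxcr5 from -1.57 to 0.20 in ibrutinib. The interaction reversed for Cxcr5 (0.55 without the T-marker-rich libraries and Eμ-TCL1 replicate 2 in DMSO), Ccr6 (0.025 with a pseudocount of 5), Itga4 (-0.10 with the replicate block, -0.11 with it within genotype or with shared numbers only) and Itgb1 (0.19 with quantile normalization, 0.046 with weights, 0.066 with shared numbers or the replicate block within genotype, 0.33 and 0.012 without the T- and myeloid-marker-rich libraries of DMSO or of both tables). Over libraries left out in turn the interaction ran from -1.62 to 0.74 for Cxcr5, from -0.56 to 0.42 for Ccr6, from -0.10 to 1.46 for Itga4 and from -0.45 to 0.39 for Itgb1.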
